A study of Homo sapiens with 12 samples.

Results

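Expression was described for 9 genes of one regulatory circuit of B cells: the ID genes ID1, ID2 and ID3, the E protein genes TCF3, TCF4 and TCF12, EBF1, and the Ikaros family genes IKZF1 and IKZF3. They are 9 of the 58302 genes in the deposited table and were picked by name, because ID3 moved in opposite directions in the lines under selinexor. ID3's response to the drug therefore chose the set and is given as a description with no test; the other 8 genes were tested. RNA sequencing had been run on cells of established human lymphoma lines, OCI-LY3 and SU-DHL6, both given the genotype WT. The labels class OCI-LY3 as ABC-DLBCL (the activated B-cell type of diffuse large B-cell lymphoma) and SU-DHL6 as the germinal centre type, GCB-DLBCL. Each line was grown untreated or with selinexor, an inhibitor of the nuclear export receptor XPO1, which gives 4 groups of 3 libraries. Selinexor doses of 300 and 100 nM and exposures of 24 and 48 h stand in the protocols, without saying which library or line had which. A response that differs between OCI-LY3 and SU-DHL6 and a dose or time that differs between them cannot be told apart. The libraries are called biological triplicates with no account of the cultures, so p-values measure only the spread between these samples, which may be technical. Each line stands for 1 lymphoma, not for its class.

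E proteins are basic helix-loop-helix factors that pair with each other and bind E-box sequences in DNA; in B cells TCF3 is the best known of them, and with EBF1 it switches on the genes of B-cell identity. ID proteins have the helix-loop-helix but no DNA-binding region, so they pair with E proteins and keep them off DNA. IKZF1 (Ikaros) and IKZF3 (Aiolos) are zinc finger factors that repress or activate lymphoid genes together with chromatin complexes. ID3 and TCF3 are known as recurrently mutated genes in Burkitt lymphoma, another lymphoma of germinal centre B cells.

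ID1 and TCF3 fell in both lines, as described below, and the DNA before their start sites is shown because the 2 genes moved together. Both stretches lie outside annotated exons. The sequences are from RefSeq on GRCh38.p14 and read 5′ to 3′ on the strand of the gene. Capitals mark every match, on either strand, to an E-box (CANNTG), the TATA sequence TATAA, the CCAAT sequence or the GC box GGGCGG. ID1 is shown at chr20:31605039-31605282 on the plus strand and TCF3 at chr19:1652616-1652865 on the minus strand.
ID1: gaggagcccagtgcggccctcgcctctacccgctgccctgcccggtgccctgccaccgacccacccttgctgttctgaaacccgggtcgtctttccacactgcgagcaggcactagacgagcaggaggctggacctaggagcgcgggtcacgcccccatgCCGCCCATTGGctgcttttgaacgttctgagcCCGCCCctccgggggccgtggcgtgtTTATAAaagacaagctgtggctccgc
TCF3: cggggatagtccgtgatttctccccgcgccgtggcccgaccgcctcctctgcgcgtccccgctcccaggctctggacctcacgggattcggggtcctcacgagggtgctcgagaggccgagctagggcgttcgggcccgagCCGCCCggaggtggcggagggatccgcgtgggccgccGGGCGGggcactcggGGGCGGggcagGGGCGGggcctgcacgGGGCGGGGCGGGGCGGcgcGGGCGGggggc
The 3 ID genes, whose values under selinexor differ in direction, are then set side by side over the 30 bases from 40 to 11 bases before the RefSeq start. Of the 250 bases before that start, 229 for ID2 and 250 for ID3 lie in exons of GENCODE transcripts that start further upstream, so these stretches are inside the gene spans given below. These stretches are chr20:31605249-31605278 for ID1, chr2:8682016-8682045 for ID2 and, on the minus strand, chr1:23559512-23559541 for ID3.
ID1 core: tggcgtgtTTATAAaagacaagctgtggct
ID2 core: gcgagtgcggataaaagCCGCCCcgccggg
ID3 core: caggcaggctcTATAAgtgaccgccgcggc

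In these letters ID1 and ID3 carry TATAA close to the start, at -31 and -29, and ID2 does not. Over the 250 bases before the start, 18.9% of the 35116 RefSeq promoters of that length hold TATAA on either strand. The ID1 match overlaps a match on the other strand, at -32. The TCF3 stretch holds 8 matches to GGGCGG, some of them touching, ID1 and ID2 hold 2 each and ID3 holds 0; 42.6% of promoters hold at least 1. An E-box is present in the 250 bases of ID2 (1 match, at -205) and has 0 matches in those of ID1, ID3 and TCF3, against 61.8% of all promoters with a match. The Ikaros core GGGAA had 1 match in ID2 and 0 in ID1, ID3 and TCF3, against 59.0% of promoters, and CCAAT had 3 in ID2, 1 in ID1 and 0 in ID3 and TCF3, against 32.0%. These are descriptions of the letters in a short window and say nothing of binding. Of the 9 genes, 8 have an entry in the promoter table.

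On GRCh38, in the coordinates of the deposited table, the short ID genes lie at chr20:31605283-31606515 (ID1, ENSG00000125968), chr2:8678845-8684453 (ID2, ENSG00000115738) and chr1:23557918-23559794 (ID3, ENSG00000117318). The E protein genes span chr19:1609290-1652605 (TCF3, ENSG00000071564), chr18:55222331-55664787 (TCF4, ENSG00000196628) and chr15:56918623-57299281 (TCF12, ENSG00000140262). EBF1 (ENSG00000164330) spans chr5:158695916-159099761, IKZF1 (ENSG00000185811) chr7:50304124-50405101 and IKZF3 (ENSG00000161405) chr17:39757715-39864188. All are protein-coding genes, and each value below counts reads over the whole gene, so isoforms are not told apart. Reads shared with an antisense gene are uncertain for ID2, whose exons share 38 bases with ID2-AS1 (0 to 28 counts per library), for TCF4, which shares 65 bases with TCF4-AS2 (0 to 4 counts), and for IKZF1, which shares 110 bases with an antisense gene not analysed here.

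Library totals ran from 14210200 to 16405842 counts. Treated OCI-LY3 replicate 3 and untreated SU-DHL6 replicate 1 lay away from the rest of their groups on principal component 4 of log2 CPM (counts scaled to library size). Their scores were -25, against 12.6 and 8.3, and -41.5, against 17.5 and 16.2. Without both, the counts of called genes under selinexor given below stayed at 5, 4 and 5. The mean GC content of the counted transcripts was 48.9 to 49.3% in treated and 49.7 to 50.7% in untreated SU-DHL6 libraries, and 50.6 to 51.2% against 50.7 to 50.99% in OCI-LY3. The summed CPM of pan-B markers was 1664 to 1698 in untreated OCI-LY3 and 2688 to 3138 in untreated SU-DHL6, and 2591 to 2711 and 2456 to 2787 under selinexor. The summed CPM of 6 germinal centre type markers was 749 to 761 in untreated SU-DHL6 and 154 to 158 in untreated OCI-LY3, and that of 6 activated type markers was 741 to 834 and 3360 to 3435. Under selinexor the activated type sum was 2492 to 2547 in OCI-LY3 and 457 to 485 in SU-DHL6, and the germinal centre type sum 136 to 142 and 562 to 600. Of 7 T and NK markers the summed CPM stayed at or under 3.05, with CD2 and CD3G at 0 in every library. Of 6 myeloid markers, LYZ, MPO and S100A8 were at 0 counts throughout. Their sum was at most 0.72 in SU-DHL6 but 29.2 to 32.0 in untreated and 19.2 to 21.5 in treated OCI-LY3, where ITGAM averaged 29.9 untreated and 15.9 treated and CSF1R 0.927 and 4.36, and the part of these shifts in the results below was not tested. In such bulk samples fewer cells that express a gene and less RNA per cell cannot be told apart.

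Untreated, the lines carried different members of each family. Levels between genes are compared in FPKM, which divides counts by gene length and library total. The lengths used are not given, and they do not keep the proportions of GENCODE 29 exon lengths. For TCF3 and ID3 those exon lengths are 6080 and 1797 bases. In untreated OCI-LY3 replicate 1, TCF3 had 5966 counts at 20.9 FPKM and ID3 262 counts at 6.34 FPKM. Counts per FPKM differed more between these genes than the exon lengths do. Orders and ratios between genes therefore depend on the lengths used. In untreated OCI-LY3, ID2 led with a mean of 52.0 ± 19.1 FPKM (SD, n = 3), followed by TCF3 at 21.0 ± 0.099 and IKZF1 at 18.6 ± 1.88. TCF4 at 6.90 and ID3 at 6.43 overlapped each other, IKZF3 stood at 5.45, and EBF1, TCF12 and ID1 lay between 1.68 and 1.75 with overlapping libraries. In untreated SU-DHL6, TCF3 at 25.7 ± 2.41 FPKM and ID3 at 25.7 ± 3.57 overlapped at the top. They were followed by IKZF1 at 13.3 ± 1.32, IKZF3 at 8.27 ± 0.437 and ID1 at 4.13 ± 0.704. ID2, TCF12 and EBF1 lay between 1.44 and 1.62 FPKM with each overlapping its neighbour, and TCF4 was near 0 at 0.010. The main ID gene was thus ID2 in OCI-LY3 and ID3 in SU-DHL6, and TCF4, an E protein also known for its role in plasmacytoid dendritic cells, was seen at more than a trace in OCI-LY3 alone of these lines.

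Between the untreated lines, 5 of the 8 genes other than ID3 passed edgeR's quasi-likelihood test at an adjusted p under 0.05, with 3 higher and 2 lower in OCI-LY3, and 67.3% of all tested genes did (33.6% higher, 33.7% lower). TCF4 had 7, 14 and 8 counts in the untreated SU-DHL6 libraries, or 0.475, 0.870 and 0.578 CPM, against 473, 459 and 448 CPM in OCI-LY3. This is a log2 difference of 9.45 ± 0.191 (SE; 701-fold; edgeR adjusted p = 8.95e-14). ID2 gave 195, 187 and 347 CPM in OCI-LY3 and 8.61, 3.54 and 9.39 in SU-DHL6, higher in OCI-LY3 by 5.09 ± 0.446 on the log2 scale (edgeR adjusted p = 3.80e-06). No library of either gene in one line reached the range of the other line.

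ID3 and ID1 went the other way. ID3 gave 18.2, 20.4 and 17.6 CPM in untreated OCI-LY3 and 57.5, 79.1 and 77.9 in untreated SU-DHL6 (log2 difference -1.93 ± 0.13); these are the baselines of the responses that chose the set, so no test is given. ID1 gave 3.13, 4.56 and 4.11 CPM against 9.02, 7.71 and 10.98 (-1.23 ± 0.241, edgeR adjusted p = 0.000417). Both were lower in every OCI-LY3 library than in any SU-DHL6 library. The Ikaros genes split: IKZF1 was higher in OCI-LY3 (502 ± 46.7 against 342 ± 43.6 CPM; log2 difference 0.55 ± 0.113, edgeR adjusted p = 0.000588). IKZF3 was lower there (125 ± 2.78 against 181 ± 12.4 CPM; -0.53 ± 0.098, edgeR adjusted p = 0.000238). TCF3 (422 ± 5.94 against 495 ± 62.6 CPM, edgeR adjusted p = 0.106), TCF12 (44.2 ± 5.89 against 36.7 ± 4.30, adjusted p = 0.0911) and EBF1 (22.4 ± 0.544 against 17.4 ± 3.97, adjusted p = 0.0508) did not pass. Without the first untreated SU-DHL6 library, TCF3 was lower in OCI-LY3 (log2 difference -0.33, edgeR adjusted p = 0.0208) and EBF1 higher (0.54, adjusted p = 0.00323). Over the 21 alternatives run, EBF1 passed in 9, TCF3 in 3 and TCF12 in 1. In CPM, 6 of the 8 genes other than ID3 had no overlap between the untreated lines, as did 70.9% of all tested genes.

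**Figure D1:**
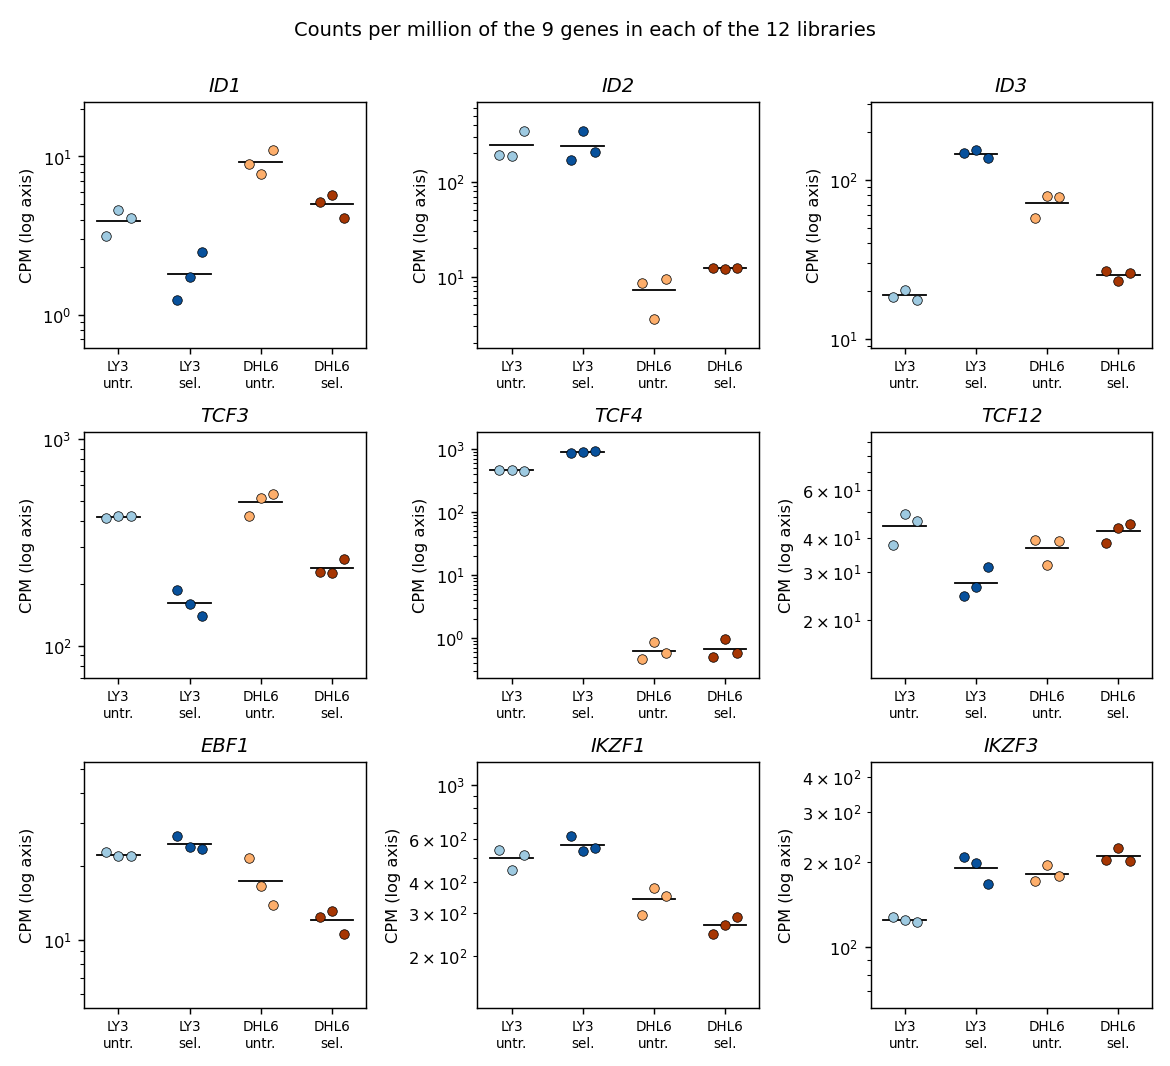
CPM on a log axis for each of the 9 genes; each point is a library, the bar is the mean of 3, and the groups are OCI-LY3 (LY3) and SU-DHL6 (DHL6), untreated (untr.) and with selinexor (sel.). ID3 lies above the untreated range in all treated OCI-LY3 libraries and below it in all treated SU-DHL6 libraries, and TCF4 in SU-DHL6 stays under 1 CPM in all 6 libraries.

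Under selinexor the ID genes parted. ID3, the gene that chose the set, went from 18.2, 20.4 and 17.6 CPM to 147, 154 and 138 in OCI-LY3, a fitted log2 difference of 2.96 ± 0.134 (SE). In SU-DHL6 it went from 57.5, 79.1 and 77.9 CPM to 26.9, 23.2 and 25.8, a fitted log2 difference of -1.50 ± 0.127. The treated and untreated libraries do not overlap in either line, and the order of the lines is turned round: ID3 was the lower in OCI-LY3 before treatment and is the higher there after it. The distance between the responses was -4.46 ± 0.183 (SU-DHL6 minus OCI-LY3). For scale, 729 of the 16474 genes in the fit were higher in OCI-LY3 and lower in SU-DHL6 at an adjusted p under 0.05, 73 of them by over 2-fold in both lines; ID3's place among them is fixed by its choice.

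ID1, an early target of BMP signalling, fell in both lines. It gave 3.13, 4.56 and 4.11 CPM untreated and 1.24, 1.73 and 2.49 treated in OCI-LY3, a log2 change of -1.11 ± 0.271 (edgeR adjusted p = 0.00421). In SU-DHL6 it gave 9.02, 7.71 and 10.98 untreated and 5.15, 5.73 and 4.06 treated, a change of -0.89 ± 0.234 (edgeR adjusted p = 0.00707). Every treated library lay below every untreated one in its line, and the difference between these responses did not pass (0.22 ± 0.355, edgeR adjusted p = 0.684).

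ID2, which in lymphocytes is best known from innate lymphoid and NK cells, varied more between replicates, by the highest over the lowest CPM, than the other 8 genes in every group but treated SU-DHL6. It gave 195, 187 and 347 CPM untreated and 169, 346 and 208 treated in OCI-LY3, with wide overlap (log2 difference -0.01 ± 0.361, edgeR adjusted p = 0.999). In SU-DHL6 the untreated libraries gave 8.61, 3.54 and 9.39 CPM and the treated ones 12.2, 12.2 and 12.2. These groups do not overlap, but the log2 difference of 0.77 ± 0.419 did not pass (edgeR adjusted p = 0.169). An error of this size leaves a change of ID2 in either line poorly measured.

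Of the E protein genes, TCF3 fell in both lines, while TCF4 rose and TCF12 fell in OCI-LY3. TCF3 went from 416, 426 and 426 CPM to 187, 159 and 140 in OCI-LY3 (log2 change -1.39 ± 0.122, edgeR adjusted p = 7.16e-07). In SU-DHL6 it went from 424, 520 and 541 CPM to 227, 226 and 262 (-1.05 ± 0.121, edgeR adjusted p = 9.86e-06). No treated library reached the untreated range in either line. The responses did not pass a test of their difference (0.33 ± 0.169, edgeR adjusted p = 0.144), although with libraries scaled by total counts (0.72, adjusted p = 0.00245) or with offsets for GC content and length (0.55, adjusted p = 0.000729) they did. TCF3 transcripts have a GC content of 61.1%, the highest of the 9 genes; with those offsets the fall in SU-DHL6 was -0.89.

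TCF4 rose in OCI-LY3 from 473, 459 and 448 CPM to 856, 898 and 921, and each treated library lay above each untreated one (log2 change 0.95 ± 0.117, edgeR adjusted p = 1.64e-05). In SU-DHL6 it had 7, 14 and 8 counts untreated and 9, 18 and 11 counts treated, so a change there could hardly be seen at this depth (log2 difference 0.09 ± 0.279, edgeR adjusted p = 0.887). TCF12 (HEB) fell in OCI-LY3 from 37.6, 48.9 and 46.3 CPM to 24.5, 26.4 and 31.2 (-0.69 ± 0.136, edgeR adjusted p = 0.000914). Its treated and untreated libraries do not overlap there. In SU-DHL6, TCF12 gave 39.3, 31.8 and 39.1 CPM untreated and 38.4, 43.6 and 44.9 treated (0.20 ± 0.134, edgeR adjusted p = 0.242), with overlapping groups. Scaled by total counts that SU-DHL6 difference passed at 0.47 (edgeR adjusted p = 0.0147). The responses of TCF12 differed between the lines by 0.89 ± 0.191 (edgeR adjusted p = 0.0022).

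**Figure D2:**
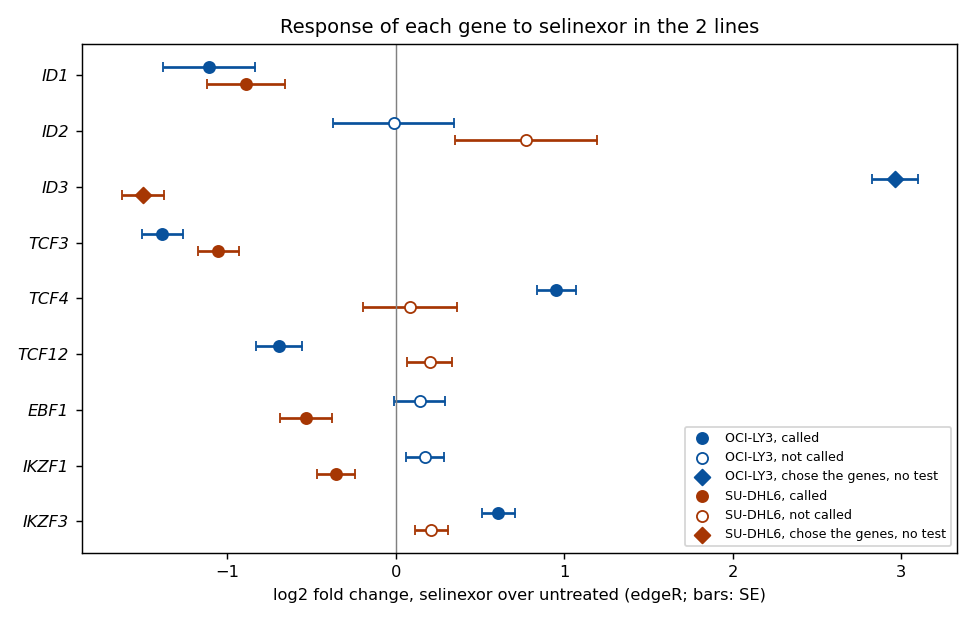
Fitted log2 fold change of each gene, selinexor over untreated, in OCI-LY3 (blue) and SU-DHL6 (brown), with bars for the SE from edgeR over 3 libraries a group; filled circles passed an adjusted p under 0.05, open circles did not, and diamonds are ID3, which chose the set and was not tested. ID1 and TCF3 lie left of 0 in both lines, and ID3 lies at 2.96 and -1.50.

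In deposited FPKM, the make-up of both families shifted. ID3 gave 12.7, 14.3 and 7.34% of the summed ID1, ID2 and ID3 FPKM in untreated OCI-LY3 and 57.9, 41.4 and 50.9% in treated OCI-LY3. In SU-DHL6 its share was 77.6, 87.0 and 80.0% untreated and 65.7, 61.2 and 67.1% treated. Shares of the 2 states do not overlap in either line. Because ID3's response chose the set, these shares are a description with no test. In treated OCI-LY3, ID3 at 46.4 ± 2.60 FPKM stood level with ID2 at 47.8 ± 18.8. In treated SU-DHL6 it had come down to 10.9 ± 0.798 FPKM, below TCF3 at 14.9 ± 1.69 with no overlap, and overlapping its neighbour in the order, IKZF3 at 11.5 ± 0.752.

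In deposited FPKM, the leading E protein transcript of OCI-LY3 was TCF3 untreated and TCF4 treated. The treated order depends on the gene lengths used. With GENCODE 29 exon lengths, 27828 bases for TCF4 and 6080 for TCF3, treated replicate 1 (11025 and 2409 counts) has them about level per base. In treated replicates 2 and 3 TCF4 still leads that way (11942 and 12202 counts, against 2109 and 1850). In CPM, which does not divide by the far longer exons of TCF4, TCF4 already led untreated (48.7 to 51.1% of the sum, against 44.9 to 46.3% for TCF3). Per length, TCF3 made up 70.7, 70.6 and 71.3% of the summed E protein FPKM untreated and 40.2, 35.2 and 31.6% treated, and TCF4 24.3, 23.0 and 22.6% untreated and 55.6, 60.2 and 62.9% treated. In SU-DHL6, TCF3 kept most of the sum, 93.2, 95.4 and 94.6% untreated and 88.2, 86.7 and 88.1% treated, and TCF12 made up nearly all of the rest.

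The ratio of summed ID to summed E protein FPKM sets the inhibitors beside their targets at the RNA level. It rests on ID3 and on the gene lengths behind the FPKM, and is a description with no test. In OCI-LY3 it was 1.69, 1.64 and 2.77 untreated and 3.78, 5.71 and 4.23 treated (means 2.03 ± 0.638 and 4.57 ± 1.01). In SU-DHL6 it was 1.13, 1.15 and 1.18 untreated and 1.10, 1.01 and 0.893 treated (means 1.15 ± 0.0255 and 1.00 ± 0.103). Treated OCI-LY3 libraries all lay above the untreated ones, and treated SU-DHL6 libraries all lay just below theirs. In CPM the ratios of the groups overlapped in both lines, at 0.227 to 0.401 untreated and 0.297 to 0.464 treated in OCI-LY3 and at 0.162 to 0.169 and 0.137 to 0.166 in SU-DHL6. In SU-DHL6 both sums came down together, with the ID sum going from 27.8, 32.2 and 34.3 FPKM to 17.2, 16.4 and 17.1 and the E protein sum from 24.6, 27.9 and 29.1 to 15.7, 16.3 and 19.2. In OCI-LY3 the ID sum was 49.9, 48.7 and 81.8 untreated and 79.3, 119 and 86.6 treated, where the third untreated library overlaps the lowest treated one, and the E protein sum went from 29.5, 29.7 and 29.5 to 21.0, 20.8 and 20.5. The direction of that sum depends on the unit: in CPM it was 926, 933 and 920 untreated and 1068, 1083 and 1092 treated. Transcript levels do not measure the proteins that pair.

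**Figure D3:**
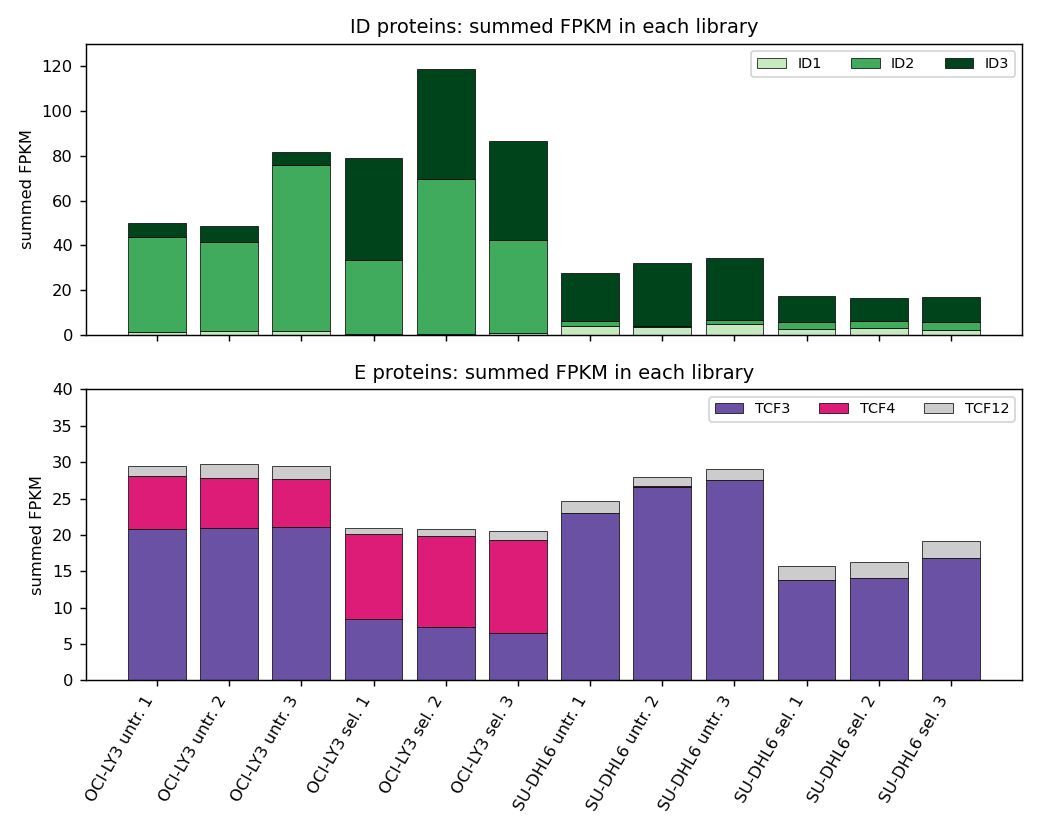
Stacked bars of deposited FPKM in each of the 12 libraries, for the ID genes (upper panel) and the E protein genes (lower panel); each bar starts at 0 and is divided by gene. In treated OCI-LY3 libraries ID3 makes up 41.4 to 57.9% of the ID bar and TCF4 55.6 to 62.9% of the E protein bar.

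EBF1, the pioneer factor of the B lineage, was low in both lines. It gave 23.0, 22.0 and 22.0 CPM untreated and 26.6, 24.0 and 23.5 treated in OCI-LY3, groups that do not overlap but did not pass (log2 difference 0.14 ± 0.152, edgeR adjusted p = 0.476). In SU-DHL6 it fell from 21.7, 16.7 and 13.9 CPM to 12.4, 13.2 and 10.6 (-0.53 ± 0.154, edgeR adjusted p = 0.0124), also without overlap. That fall was lost when libraries were scaled by total counts (-0.28, edgeR adjusted p = 0.185) and without the third treated SU-DHL6 library (-0.45, adjusted p = 0.0562).

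The Ikaros family genes did not move as a pair. IKZF3 rose in OCI-LY3 from 128, 125 and 122 CPM to 208, 198 and 167, with no overlap (log2 change 0.61 ± 0.099, edgeR adjusted p = 0.000186). In SU-DHL6 it gave 171, 195 and 178 CPM untreated and 203, 225 and 201 treated. These groups do not overlap either, but the log2 difference of 0.21 ± 0.098 did not pass (edgeR adjusted p = 0.0975), except with total counts, where it was 0.48 (adjusted p = 0.00086).

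IKZF1 gave 539, 449 and 517 CPM untreated and 616, 535 and 552 treated in OCI-LY3, with overlapping groups (log2 difference 0.18 ± 0.113, edgeR adjusted p = 0.222). In SU-DHL6 it fell from 295, 381 and 351 CPM to 247, 269 and 289 (-0.35 ± 0.113, edgeR adjusted p = 0.0216), and every treated library lay under every untreated one. This small fall depended on the scaling and on single libraries. It was -0.08 with total counts (edgeR adjusted p = 0.574) and missed the threshold without untreated SU-DHL6 replicate 2 (edgeR adjusted p = 0.0941) or 3 (0.0938) or treated SU-DHL6 replicate 1 (0.073) or 2 (0.0536).

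Counted over the 8 tested genes, 5 passed in OCI-LY3, where TCF4 and IKZF3 rose and ID1, TCF3 and TCF12 fell, against 44.4% of all tested genes (22.2% in each direction). In SU-DHL6, ID1, TCF3, EBF1 and IKZF1 fell, which is 4 of the 8, against 43.2% of all tested genes (22.8% lower). With TMM scaling in edgeR, and by DESeq2 and limma-voom, 0 of the 8 rose in SU-DHL6, and 1 was higher there at an unadjusted p under 0.05 by edgeR. With total counts the edgeR split was 2 higher (TCF12 and IKZF3) and 2 lower (ID1 and TCF3). Libraries did not overlap in CPM for 6 of the 8 genes in each line, against 57.5% of all tested genes in OCI-LY3 and 51.1% in SU-DHL6. Nothing particular to the set is read from these counts. The median log2 difference of the 8 genes was 0.07 in OCI-LY3 and -0.13 in SU-DHL6, beside 0.00 over all tested genes in each line.

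The responses of 5 of the 8 genes differed between the lines, against 36.9% of all tested genes (17.0% higher and 19.9% lower in SU-DHL6). TCF12 responded higher in SU-DHL6 and TCF4 (-0.87 ± 0.309, edgeR adjusted p = 0.0456), EBF1 (-0.68 ± 0.217, adjusted p = 0.0249), IKZF1 (-0.53 ± 0.16, adjusted p = 0.0184) and IKZF3 (-0.40 ± 0.139, adjusted p = 0.0362) responded lower there than in OCI-LY3. TCF12 passed under all 21 alternatives run, with an edgeR, DESeq2 or limma adjusted p of at most 0.0337, whereas TCF4 was lost in 13 and IKZF3 in 12 of the 21, and EBF1 and IKZF1 in 3 each. The other members had values of 0.79 ± 0.553 for ID2 (edgeR adjusted p = 0.305), and of 0.22 and 0.33 for ID1 and TCF3 as given above.

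The genes whose pattern over the 12 libraries was most like that of ID3 were ranked by Pearson's r of log2 CPM, centred on each line's mean, over the 9267 tested genes whose log2 CPM averaged 3 or more. They were ACSF2 (r = 0.99), an acyl-CoA synthetase family gene, CCM2 (0.988), CYFIP2 (0.988), BCAS4 (0.988) and SYK (0.986), the kinase that relays B-cell receptor signals. The values of r are descriptions over points that share library depth and treatment. In OCI-LY3 the fitted log2 differences of these 5 genes were 1.33 ± 0.102, 1.00 ± 0.098, 1.55 ± 0.087, 1.57 ± 0.105 and 0.70 ± 0.081, in that order, and in SU-DHL6 they were -0.67 ± 0.103, -0.55 ± 0.093, -0.60 ± 0.085, -0.64 ± 0.096 and -0.28 ± 0.081. All 5 moved less than ID3 in each line. With total counts the SU-DHL6 value of SYK was -0.009. Among the 8 other genes of the set, r with ID3 ran from -0.88 for TCF12 to 0.71 for TCF4, with IKZF3 at 0.66, IKZF1 at 0.64, EBF1 at 0.47, ID2 at -0.30, ID1 at -0.37 and TCF3 at -0.42.

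Of 21 listed target genes of E proteins and EBF1, 18 were tested: 7 rose and 3 fell in OCI-LY3, and 2 rose and 10 fell in SU-DHL6. Over all tested genes, 22.2% rose and 22.2% fell in OCI-LY3, and 20.4% rose and 22.8% fell in SU-DHL6. The responses of 9 of the 18 differed between the lines, 2 higher and 7 lower in SU-DHL6, beside 36.9% of all tested genes. The median log2 difference was 0.20 in OCI-LY3, over the 16 with counts there, and -0.38 in SU-DHL6, beside 0.01 and 0.02 over all genes with counts in those lines. Scaled by total counts, 4 rose and 5 fell in OCI-LY3 and 3 rose and 5 fell in SU-DHL6, and the medians were 0.09 and -0.11. CD79B, a signalling chain of the B-cell receptor, rose in OCI-LY3 by 1.74 ± 0.107 (edgeR adjusted p = 2.58e-08) and fell in SU-DHL6 (-0.58 ± 0.104, adjusted p = 0.000436). POU2AF1, a B-cell coactivator of octamer factors, rose in OCI-LY3 by 0.62 ± 0.101 (edgeR adjusted p = 0.000217) and fell in SU-DHL6 (-0.42 ± 0.102, adjusted p = 0.00389), a fall that was lost with total counts (-0.15, adjusted p = 0.168). CCND3, a cyclin of germinal centre B cells, fell in SU-DHL6 (-2.02 ± 0.299). In OCI-LY3 it fell by 0.87 ± 0.323 (edgeR adjusted p = 0.0489), a call lost in 13 of 22 alternatives. The kinase gene BLK fell in SU-DHL6 (-0.71 ± 0.097) and rose in OCI-LY3 (0.28 ± 0.097), a rise lost in 7 of 22 alternatives. CD72, an inhibitory coreceptor, and FOXO1, a factor of the germinal centre dark zone, rose in SU-DHL6 by 0.81 ± 0.101 and 0.54 ± 0.098. In OCI-LY3, FOXO1 rose by 0.32 ± 0.1 and CD72 fell (-0.34 ± 0.113), the latter call lost in 6 of 22 alternatives.

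Of 25 other B-lineage transcription factors, all tested, 11 rose and 6 fell in OCI-LY3, and 2 rose and 12 fell in SU-DHL6, with median log2 differences of 0.12 and -0.42; the shares over all tested genes are 22.2% each way in OCI-LY3, and 20.4% and 22.8% in SU-DHL6. Scaled by total counts, 8 rose and 8 fell in OCI-LY3 and 5 rose and 8 fell in SU-DHL6, and the medians were 0.009 and -0.15. The responses of 13 genes differed between the lines, 1 higher and 12 lower in SU-DHL6, beside 36.9% of all tested genes. SPIB, an ETS factor of B cells, rose in OCI-LY3 by 0.81 ± 0.108 (edgeR adjusted p = 3.38e-05) and fell in SU-DHL6 (-1.11 ± 0.11, adjusted p = 2.37e-06). ETS1 rose in OCI-LY3 by 1.20 ± 0.11 and gave 0.23 ± 0.108 in SU-DHL6 (edgeR adjusted p = 0.106), which passed in 2 of 22 alternatives. RUNX1 rose in both, by 0.55 ± 0.092 in SU-DHL6 and by 0.25 ± 0.089 in OCI-LY3, the latter call lost in 10 of 22 alternatives. GFI1, a zinc finger repressor, fell in both lines (-2.33 ± 0.209 in OCI-LY3 and -2.46 ± 0.196 in SU-DHL6). IRF4, a defining factor of the activated type, fell in both (-0.99 ± 0.079 and -0.51 ± 0.079). PAX5, FOXO1, POU2AF1 and LEF1 stand in both this list and the target list.

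Genes of BMP and TGF-beta signalling, which is known to switch ID genes on, were mixed. Of 27 listed, 24 were tested: 4 rose and 5 fell in OCI-LY3, and 7 rose and 7 fell in SU-DHL6. Over all tested genes, 22.2% went each way in OCI-LY3, and 20.4% rose and 22.8% fell in SU-DHL6. The 7 that rose in SU-DHL6 include BAMBI, at 0 CPM untreated and 0.164 treated. Medians were -0.04 in OCI-LY3 (22 with counts) and -0.20 in SU-DHL6. With total counts the splits were 3 and 6 in OCI-LY3 and 7 and 2 in SU-DHL6, and the medians -0.15 and 0.07. The inhibitory SMADs, which are themselves induced by this signalling, fell in OCI-LY3 (SMAD7 -1.69 ± 0.164, edgeR adjusted p = 1.80e-06; SMAD6 -2.72 ± 0.535, adjusted p = 0.000905). In SU-DHL6, SMAD6, under 3 CPM in every group mean, fell by 2.06 ± 0.58. SMAD7 fell there too (-0.60 ± 0.171), a call lost with total counts (edgeR adjusted p = 0.137) and without untreated replicate 3 (adjusted p = 0.0609). The receptor gene ACVR1B rose in both lines, by 1.95 ± 0.406 in OCI-LY3 and 1.89 ± 0.407 in SU-DHL6. TGFBR2, a TGF-beta receptor, rose in OCI-LY3 (0.68 ± 0.088, edgeR adjusted p = 2.62e-05) and fell in SU-DHL6 (-0.46 ± 0.086, adjusted p = 0.000664), a fall that was lost with total counts (-0.19, adjusted p = 0.117). In SU-DHL6 the ligand gene BMP6 fell by 2.23 ± 0.445 and the BMP receptor gene BMPR2 rose by 0.76 ± 0.16. BMP6 was low, at a mean of 2.075 CPM untreated and 0.437 treated.

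**Figure D4:**
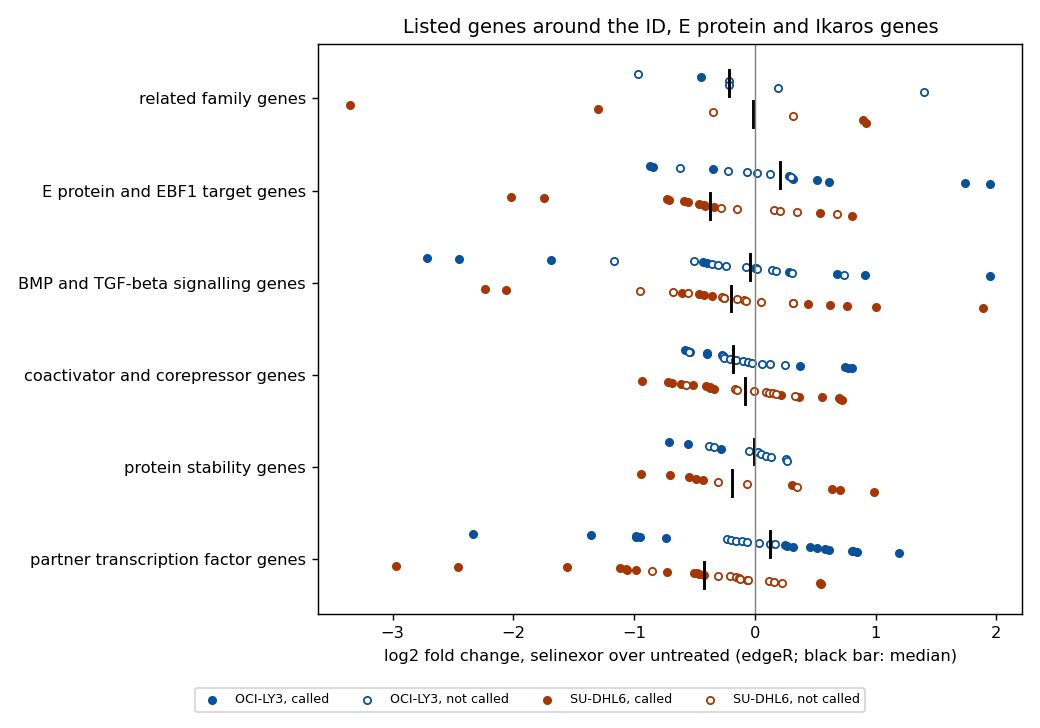
Fitted log2 fold change of each tested gene of 6 lists, selinexor over untreated, in OCI-LY3 (blue) and SU-DHL6 (brown); filled points passed an adjusted p under 0.05, black bars are list medians, and genes without counts in a line or at 0 in 1 of its groups are not drawn. The medians of the target and partner transcription factor lists lie right of 0 in OCI-LY3 (0.20 and 0.12) and left of 0 in SU-DHL6 (-0.38 and -0.42); with total counts they are 0.09 and 0.009, and -0.11 and -0.15.

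Of 26 coactivator and corepressor genes, 24 were tested: 4 rose and 7 fell in OCI-LY3, and 6 rose and 9 fell in SU-DHL6 (9 and 4 with total counts). Beside them, 44.4% of all tested genes passed in OCI-LY3 and 43.2% in SU-DHL6. Medians were -0.18 and -0.08 (-0.30 and 0.19 with total counts). TLE4, a Groucho corepressor, rose by 0.75 in OCI-LY3 and fell in SU-DHL6 (-0.41), the latter call lost in 3 of 22 alternatives. SIN3B, a corepressor scaffold, rose by 0.81 and 0.70. MTA1, a subunit of the NuRD complex that Ikaros factors recruit, fell in both lines (-0.58 in OCI-LY3 and -0.69 in SU-DHL6). So did MBD2, of the same complex (-0.54 and -0.37), its SU-DHL6 call lost in 1 of 22 alternatives. In SU-DHL6 the acetyltransferase gene EP300 rose by 0.72 and the corepressor gene CTBP1 fell by 0.72, while neither passed in OCI-LY3 (-0.15 and 0.25). The OCI-LY3 value of CTBP1 did pass in 4 of 22 alternatives. The NuRD helicase gene CHD3 rose in both lines, by 0.37 in OCI-LY3 and 0.56 in SU-DHL6.

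Of 12 protein stability genes, all tested, 3 fell in OCI-LY3, and 4 rose and 5 fell in SU-DHL6 (4 and 3 with total counts). The shares of all tested genes that passed were 44.4% in OCI-LY3 and 43.2% in SU-DHL6. Medians were -0.009 and -0.19 (-0.12 and 0.08 with total counts). CRBN, the cereblon receptor through which thalidomide analogs degrade IKZF1 and IKZF3, rose in SU-DHL6 by 0.71 ± 0.12 (edgeR adjusted p = 0.00029), and CUL4B, a scaffold of its ligase, by 0.99 ± 0.115. In OCI-LY3, CRBN gave 0.26 ± 0.119 (edgeR adjusted p = 0.0893), which passed in 3 of 22 alternatives. USP1, which is known to remove ubiquitin from ID proteins, fell in SU-DHL6 (-0.70 ± 0.101) and in OCI-LY3 (-0.28 ± 0.1), the latter lost in 7 of 22 alternatives. The kinase subunit gene CSNK2A2 fell in OCI-LY3 (-0.71 ± 0.081) and SU-DHL6 (-0.54 ± 0.082). UBE2M, an enzyme of cullin activation, fell in SU-DHL6 (-0.94 ± 0.138) and gave -0.34 ± 0.137 in OCI-LY3 (edgeR adjusted p = 0.0619). The OCI-LY3 value of UBE2M passed in 5 of 22 alternatives. The deubiquitinase gene USP15 fell in OCI-LY3 (-0.55 ± 0.135) and rose in SU-DHL6 (0.64 ± 0.134), a rise that was lost with the offsets for GC content and length (0.14, edgeR adjusted p = 0.201).

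Of 15 relatives and binding partners of the 9 genes, ID4, EBF2, EBF3, TAL1 and 5 others did not pass the filter on low counts. Of the 6 tested, IKZF5 (Pegasus) was the gene that passed in OCI-LY3, where it fell by 0.45 ± 0.16 (edgeR adjusted p = 0.0345), a call lost in 9 of 22 alternatives. In SU-DHL6, IKZF5 rose by 0.92 ± 0.153 and IKZF4 (Eos) by 0.90 ± 0.321, the latter lost in 7 of 22. EBF4 (-3.35 ± 0.561) and ZNF521, a zinc finger inhibitor of EBF1 (-1.30 ± 0.285), fell there. EBF4 was low, at a mean of 3.03 CPM untreated and 0.29 treated. Over all tested genes, 44.4% passed in OCI-LY3 and 43.2% in SU-DHL6. Medians of the 6 were -0.21 in OCI-LY3 and -0.01 in SU-DHL6, and -0.33 and 0.25 with total counts.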

How the data were processed

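RNA sequencing gave 12 libraries, 3 in each of 4 groups named by the samples' titles. Per the file headers, the authors deposited a raw count and an FPKM value for every gene and library. The length that count and FPKM imply for a gene varied by a factor of at most 1.000018 across libraries (9162 genes with 50 or more counts in each). Aligner, counting program and strand setting: not given in the sources used here. Mouse builds GRCm38 and mm10 stand in the submitters' processing notes, but the identifiers are human; 58084 of them were found in GENCODE 29 on GRCh38, 97.5% of these with identical coordinates. Value columns without a library numbered 0.

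Tests used edgeR 4.0.16 in R 4.3.3: filterByExpr by group, TMM scaling, a robust quasi-likelihood F test with 1 coefficient per group over all 12 libraries, and Benjamini-Hochberg adjustment over 16474 genes, called at an adjusted p under 0.05. The SE of a log2 fold change is its size over the root of F. CPM are on TMM-scaled totals. FPKM served for levels between genes and were not tested, and the gene lengths behind them are not given. Rose and fell are used of genes past the threshold. In simulated counts for 16474 genes, 100 genes were changed at each fold, far fewer than passed in the data. There, 84% of 2-fold and 20% of 1.5-fold changes were recovered for OCI-LY3, and 74% and 23% for SU-DHL6.

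The 9 genes and the 6 gene lists were chosen with earlier results of these data known. Named were all 9 genes, up to 2 called members of each list per direction and line with the smallest adjusted p, and the 5 genes most like ID3. The untreated contrast of ID3, planned as a test, is given without one because its values are the baselines of the responses that chose the set. Values of such list genes in the other line were added after they were seen. Single values of some listed genes are not reported here.

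Alternatives were other size factors, total counts, DESeq2 1.42.0, limma 3.58.1 (voom), other filters, each line alone, a replicate block and leaving out each library. Offsets for GC content and length, and leaving out both libraries that lay apart, were chosen after seeing the data.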

Additional observations from a re-analysis of the deposited data

Results flagged for a closer look

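The selinexor response differed between the lines, as a log2 difference of SU-DHL6 minus OCI-LY3, for ID3, which was not tested, and for 5 of the 8 tested genes, beside 36.9% of all tested genes. For ID3 it was -4.46; all 3 treated libraries lay above the untreated ones in OCI-LY3 and all 3 below them in SU-DHL6, and since this pattern chose the set the difference was not tested. By edgeR's test of the interaction it was 0.89 for TCF12 (adjusted p = 0.0022), -0.87 for TCF4 (adjusted p = 0.0456), -0.68 for EBF1 (adjusted p = 0.0249), -0.53 for IKZF1 (adjusted p = 0.0184) and -0.40 for IKZF3 (adjusted p = 0.0362). The TCF4 call was lost in 13, the IKZF3 call in 12 and the EBF1 and IKZF1 calls in 3 each of 21 alternatives, and with total counts TCF12 and TCF3 were the genes of the 8 that passed. The TCF4 value rests on 7 to 18 counts per library in SU-DHL6.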

How the results depend on the processing

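Over the alternatives run, no value for the 9 genes that passed its test changed sign, and the total counts of called genes in each line and between the untreated lines stayed within 1.5 times. By direction, the SU-DHL6 count went from 0 higher and 4 lower to 2 and 2 with total counts, where EBF1 and IKZF1 were lost and TCF12 and IKZF3 gained. The count of genes whose responses differed, 5, was 2 with total counts (2 higher and 0 lower), 3 with no filter on low counts and 3 with the replicate number as a block, and ranged from 2 to 5 when each library was left out in turn; the cause was not tested. Total counts moved the median log2 difference of all genes to 0.27 in SU-DHL6, -0.09 in OCI-LY3 and 0.35 for the difference, and the split of calls in SU-DHL6 from 3365 higher and 3758 lower to 5451 and 2367, and in OCI-LY3 from 3664 and 3657 to 2939 and 4388. Replicate numbers did not pair the samples (correlations of same-numbered deviations of 0.007, 0.005 and 0.013 in OCI-LY3 and -0.12, -0.022 and 0.05 in SU-DHL6), and the block left the counts in each line at 5 and 4. In CPM, which is not per length and is TMM-scaled, the ratio of ID to E protein levels was 0.287 and 0.36 in untreated and treated OCI-LY3 and 0.165 and 0.152 in SU-DHL6, and the libraries of the treated and untreated groups overlapped in both lines. Single values of the 9 genes lost a call 38 times and gained one 17 times under an alternative. Changes of 1.5-fold were mostly missed in the simulation, where 100 of 16474 genes were changed at each fold. In the data 44.4% of tested genes passed in OCI-LY3 and 43.2% in SU-DHL6. The threshold was therefore stricter in the simulation, and its recovery does not measure that of the tests above. Genes that did not pass may still have changed.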
